A study of Mus musculus with 10 samples.

Results

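The 10 genes described here are Tpbpa, Tpbpb, Prl2b1, Plac1, Psg29, Gata3, Krt7, Rhox6, Rhox9 and Cdx2, a set of genes used in the mouse as markers of trophoblast and placenta, out of 36191 genes in the count table. They were selected on their levels and log2 fold changes between Rybp-null and wild type cultures in these same libraries. Their differences between genotypes are therefore given as a description. No p-value is printed for these differences, and nothing is read from how many passed a threshold. The libraries come from Rybp null mutant and wild type mouse embryonic stem (ES) cells, both on the strain background 129x1 x 129S1, and from cultures that were led from them toward heart cells through hanging-drop embryoid bodies. RNA of each genotype was sequenced at day 0 (ES cells, grown with leukemia inhibitory factor) in 1 library, and at days 8 and 14 of differentiation in 2 libraries each, which makes 10 libraries. Each group is named by genotype and day. The labels do not say how many null lines were used or whether replicates were separate differentiations, so p-values measure the spread between these libraries, which may be technical. Whether fewer cells of a type or less RNA per cell lies behind a lower level cannot be told apart in such bulk samples.

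RYBP is a subunit of variant Polycomb repressive complex 1, which places a repressive mark on histone H2A and helps to keep developmental genes silent. Trophoblast is the outer lineage of the early embryo; it builds the placenta and makes its hormones, and mouse ES cells seldom enter it under usual culture conditions. Trophoblast identity rests on transcription factors such as CDX2, GATA3 and TFAP2C, while the mature mouse placenta is rich in products of expanded gene clusters: prolactin-like hormones, pregnancy-specific glycoproteins, placental cathepsins and the X-linked Rhox homeobox genes. Several of the 10 genes have a wider use: CDX2 also acts in the posterior embryo and gut, GATA3 in many epithelia and T cells, KRT7 in simple epithelia, and the Rhox genes in germ cells.

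Library totals ran from 3028153 to 6890792 counts, and a level is written in CPM, the usual unit of a count scaled for library size. Rybp itself had 3 counts in null ES cells and 231 counts in wild type ES cells, 2 and 1 in null libraries against 120 and 153 in wild type libraries at day 8, and 4 and 2 in null libraries against 64 and 92 in wild type libraries at day 14, so every null library fell below every wild type library. The labels call the later cultures cardiac. Summed over 8 cardiomyocyte markers, the level was 121 and 68.5 CPM in null cultures against 2586 and 2132 CPM in wild type cultures at day 8, and 183 and 254 CPM in null cultures against 1035 and 909 CPM in wild type cultures at day 14. The cardiac factor Nkx2-5 was not tested for lack of counts. Of the 10 genes, 9 passed the filter on low counts and Cdx2 did not. In a fit of all 15819 genes that passed it, calls were made below an adjusted p of 0.05 by edgeR's quasi-likelihood test with Benjamini-Hochberg adjustment.

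The genes that appeared late, at day 14, are shown here by the sequence just before their start. Tpbpa and Tpbpb are close copies, and the 4 genes reached their highest level at the same day. Each sequence is the 250 bases upstream of the annotated start, 5′ to 3′ on the gene's own strand, from RefSeq on GRCm38.p6: Tpbpa at chr13:60941937-60942186 (minus strand), Tpbpb at chr13:60904848-60905097 (minus strand), Prl2b1 at chr13:27390847-27391096 (minus strand) and Psg29 at chr7:17203227-17203476 (plus strand). Capitals mark matches to any of 5 motifs searched on both strands.
Tpbpa: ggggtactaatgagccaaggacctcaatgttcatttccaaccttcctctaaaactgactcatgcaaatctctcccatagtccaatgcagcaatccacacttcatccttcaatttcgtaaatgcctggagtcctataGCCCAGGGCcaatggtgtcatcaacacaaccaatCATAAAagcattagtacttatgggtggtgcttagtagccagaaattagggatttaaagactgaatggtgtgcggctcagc
Tpbpb: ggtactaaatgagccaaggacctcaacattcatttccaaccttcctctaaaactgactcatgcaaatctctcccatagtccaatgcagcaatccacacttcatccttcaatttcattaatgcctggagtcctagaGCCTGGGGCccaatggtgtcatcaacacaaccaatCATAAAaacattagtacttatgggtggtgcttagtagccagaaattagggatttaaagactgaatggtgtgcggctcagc
Prl2b1: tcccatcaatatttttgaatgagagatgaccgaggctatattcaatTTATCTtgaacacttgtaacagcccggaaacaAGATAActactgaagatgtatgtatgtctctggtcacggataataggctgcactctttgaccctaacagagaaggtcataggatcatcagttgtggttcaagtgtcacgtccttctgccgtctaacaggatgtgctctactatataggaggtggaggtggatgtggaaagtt
Psg29: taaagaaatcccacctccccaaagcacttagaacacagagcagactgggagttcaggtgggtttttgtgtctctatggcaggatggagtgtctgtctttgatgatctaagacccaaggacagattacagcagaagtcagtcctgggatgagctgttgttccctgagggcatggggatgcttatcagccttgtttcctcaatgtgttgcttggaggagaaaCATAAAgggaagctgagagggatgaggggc

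In a global alignment the Tpbpa and Tpbpb windows were 95.2% identical, with 240 identical bases, 8 mismatches and 4 gap positions. Both hold a TFAP2-type match (GCCNNNGGC, present in 13.7% of all 32851 promoter windows of this length) and a CDX2-type match (TTTATG, read here as CATAAA, 10.8% of windows). The Psg29 window holds a TTTATG match, and that of Prl2b1 holds 2 GATA-type matches (AGATAA, 9.99% of windows), 1 on each strand. An E-box (CACGTG, 6.02% of windows) and the E2F6 core (GCGGGA, 16.9% of windows) were found in none of these 4 windows. Outside them, the E2F6 core was found in the Gata3 window and at an annotated start of Plac1. A TFAP2-type match was also in the Gata3, Krt7 and Cdx2 windows, and a GATA-type match at the other Plac1 start. A match is a run of letters, not a site of binding. Of the 10 genes, 8 had a promoter entry, and the windows fell apart by CpG content. The count of CpG dinucleotides was 19 for Gata3, 16 for Krt7 and 13 for Cdx2, against a median of 6 over all windows. It was 5 for Prl2b1, 2 for Tpbpa, 1 for Tpbpb, 0 for Psg29, and 2 and 4 at the annotated starts of Plac1. Gata3, Krt7 and Cdx2 thus lay above the median, and Prl2b1, Tpbpa, Tpbpb, Psg29 and Plac1 below it.

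Among the regulators, Gata3, a zinc finger factor of the trophectoderm, was detected from day 0 on. In ES cells it stood at 0.508 CPM in the null library (3 counts), against 4.29 CPM in wild type (13 counts), a ratio of 0.118 (95% counting interval 0.0216 to 0.431). At day 8 it had 73.3 and 59.3 CPM in null cultures, against 34.2 and 29.9 CPM in wild type cultures. By day 14 it had 121 and 68.0 CPM in null cultures, against 35.3 and 13 CPM in wild type cultures. The order of the genotypes at day 0 was thus the opposite of that at days 8 and 14, when both null libraries lay above both wild type libraries. Its log2 fold change, null over wild type, was 1.05 (SE 0.40) at day 8 and 1.98 (SE 0.40) at day 14.

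Rhox6 and Rhox9, neighbouring X-linked homeobox genes active in placenta and germ cells, were near the limit of detection in wild type cultures at day 8. Rhox6 had 34.8 and 46.6 CPM in null cultures at day 8, against 0.319 and 0.845 CPM in wild type cultures. Rhox9 had 30.5 and 44.0 CPM in null cultures at that day, against 0.639 and 0.564 CPM in wild type cultures. The pooled ratios were 67.1 (26 to 248) for Rhox6 and 61.2 (23.6 to 226) for Rhox9, with 95% counting intervals, since each gene had 4 counts in the wild type group. At day 14 Rhox6 had 61.1 and 40.5 CPM in null cultures, against 16.7 and 0.255 CPM in wild type cultures. Rhox9 had 90.4 and 52.4 CPM in null cultures at day 14, against 27.4 and 0.766 CPM in wild type cultures. Both genes were low in wild type replicate 2 and well above that in wild type replicate 1, and the groups did not overlap at either day. The log2 fold change at day 14 was 2.63 (SE 0.93) for Rhox6 and 2.38 (SE 1) for Rhox9. In ES cells Rhox6 had 2.03 CPM in null ES cells against 1.65 CPM in wild type ES cells, and Rhox9 had 2.88 CPM in null ES cells against 5.28 CPM in wild type ES cells. The intervals of both day 0 ratios included 1, at 1.23 (0.404 to 4.46) for Rhox6 and 0.545 (0.259 to 1.15) for Rhox9.

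Of the 36-base words in the annotated exons of Rhox6, 20.8% also occur in Rhox9, and 8.07% of those of Rhox9 occur in Rhox6, so the split of reads between them is uncertain. Tpbpb shares 5.89% of its words with Tpbpa, and Tpbpa 3.56% with Tpbpb. Prl2b1, Plac1 and Cdx2 share none with any other annotated gene. Whether reads were counted by strand is not given in the sources used here, so reads of antisense or overlapping genes cannot be told apart from those of these genes.

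Cdx2, the homeobox factor that sets up the trophectoderm, stayed close to the detection limit throughout. It had 0 counts in both ES cell libraries, where 0 counts allow up to 3. At day 8 it had 1.69 and 2.30 CPM in null cultures, against 0.958 and 0.845 CPM in wild type cultures. These are 15 counts in the null group and 6 in the wild type group, a ratio of 2.19 whose interval, 0.804 to 6.9, includes 1. It stood at 0.282 and 0.247 CPM in null cultures against 0.304 and 0 CPM in wild type cultures at day 14. The null and wild type groups did not overlap at day 8 and overlapped at day 14.

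Krt7, a keratin of simple epithelia that is often used to mark trophoblast, had its larger genotype difference at day 8. It had 17.2 and 33.1 CPM in null cultures at day 8, against 3.83 and 7.61 CPM in wild type cultures. At day 14 it had 77.1 and 72.4 CPM in null cultures, against 53.2 and 63.6 CPM in wild type cultures. The log2 fold change was 2.10 (SE 0.39) at day 8 and 0.36 (SE 0.32) at day 14. Wild type cultures thus held nearly as much Krt7 RNA as null cultures at day 14, when 8 of the 10 genes differed more between genotypes than Krt7 did. In ES cells it had 2.54 CPM in null ES cells against 1.32 CPM in wild type ES cells, a ratio of 1.92 (0.613 to 7.96).

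**Figure D1:**
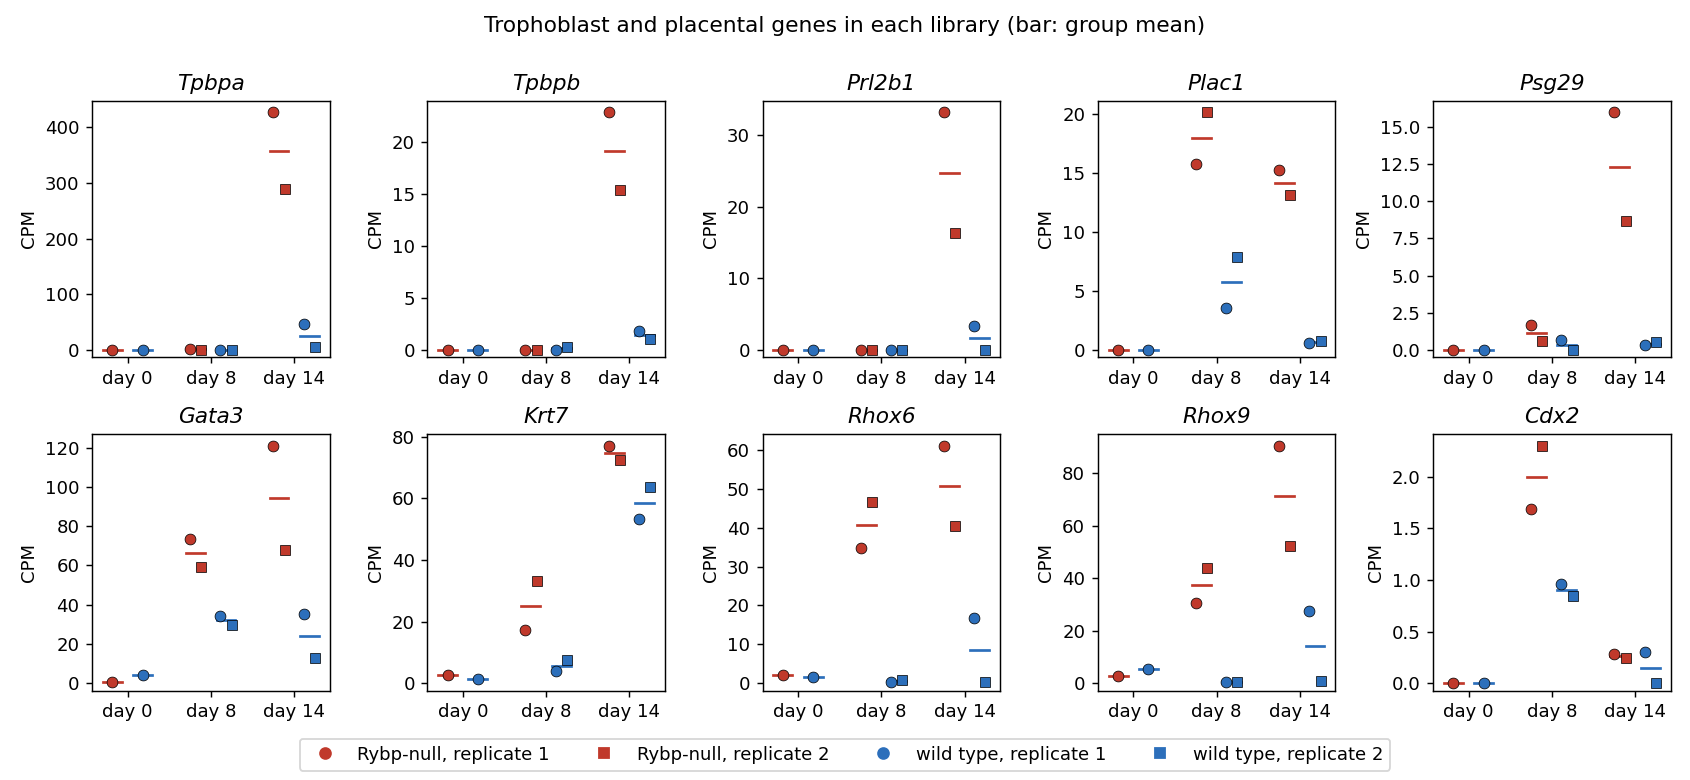
CPM of each of the 10 genes (vertical axes, 1 scale per gene) at days 0, 8 and 14, with Rybp-null libraries in red and wild type libraries in blue; circles are replicate 1, squares replicate 2 and bars the group mean. Tpbpa, Tpbpb, Prl2b1 and Psg29 were near 0 until day 14, both null libraries of Gata3, Krt7, Plac1, Rhox6 and Rhox9 lay above both wild type libraries at day 8, and wild type day 14 replicate 1 stood above replicate 2 for Tpbpa, Rhox6 and Rhox9.

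Tpbpa, Tpbpb, Prl2b1 and Psg29 were near 0 until day 14, when their levels were highest. The null means of Gata3, Krt7, Rhox6 and Rhox9 were also highest at day 14, but these genes were already present in null cultures at day 8. Tpbpa, the standard marker of the ectoplacental cone and spongiotrophoblast, had 0.169 CPM in null ES cells against 0 CPM in wild type ES cells. At day 8 it had 1.21 and 0.288 CPM in null cultures (6 counts), against 0 counts in wild type cultures, at least 1.76-fold higher. By day 14 it stood at 427 and 289 CPM in null cultures, against 45.9 and 4.59 CPM in wild type cultures. That is a log2 fold change of 3.85 (SE 0.98), and the lower null library was above the higher wild type library. Per kilobase of exon Tpbpa had the highest level of the 10 genes in null day 14 cultures.

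Tpbpb, its close copy, and Prl2b1, a placental member of the prolactin hormone family, followed at lower levels. Tpbpb had 22.8 and 15.3 CPM in null cultures at day 14, against 1.82 and 1.02 CPM in wild type cultures. Prl2b1 had 33.2 and 16.3 CPM in null cultures at that day, against 3.35 and 0 CPM in wild type cultures. Before day 14 the 2 genes together had 1 count, of Tpbpb in a wild type day 8 library. On the log2 scale the day 14 difference was 3.73 (SE 0.61) for Tpbpb and 3.94 (SE 0.95) for Prl2b1, and neither gene's groups overlapped.

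Psg29, a secreted pregnancy-specific glycoprotein, had 0 counts in both ES cell libraries. It had 1.69 and 0.576 CPM in null cultures at day 8, against 0.639 and 0 CPM in wild type cultures, groups that overlapped. At day 14 it had 16 and 8.65 CPM in null cultures, against 0.304 and 0.511 CPM in wild type cultures. With 3 counts in the wild type group the ratio at day 14 was 29.1 (95% counting interval 9.65 to 144). Unlike Tpbpa, it was no higher in wild type replicate 1 than in replicate 2.

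Plac1, an X-linked gene needed for normal growth of the mouse placenta, was not detected in ES cells (0 counts in both libraries) and was present in both genotypes at day 8. It had 15.7 and 20.1 CPM in null cultures at day 8, against 3.51 and 7.89 CPM in wild type cultures. At day 14 it had 15.2 and 13.1 CPM in null cultures, against 0.608 and 0.766 CPM in wild type cultures. The null cultures held a like level at both days, and the wild type cultures held less at day 14 than at day 8. Its log2 fold change between genotypes was 1.63 (SE 0.44) at day 8 and 4.29 (SE 0.59) at day 14.

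Between genotypes at day 8, 1 of the 9 tested genes was called higher (Krt7), beside 0.506% of all tested genes called higher and 0.759% called lower. At day 14, 3 of 9 were called higher (Psg29, Tpbpb and Plac1), beside 0.259% called higher and 0.354% called lower. None of the 9 was called lower at either day. The day 8 count was 0 without wild type day 8 replicate 1 or 2 or null day 8 replicate 2, and 3 without either wild type day 14 library. Both null libraries lay above both wild type libraries for 6 of the 9 tested genes at day 8, beside 21.1% of all tested genes. The same held for 9 of 9 at day 14, beside 20.9%. Cdx2, not tested, did so at day 8 only. Tpbpa, 1 of the 6 at day 8, had 5 and 1 counts in null libraries against 0 in wild type libraries. The median log2 fold change of the 9 tested genes was 1.84 at day 8 and 3.73 at day 14, beside 0.01 and −0.01 over all genes. Since the genes were chosen with these differences known, nothing is read from these counts. Whether the genotype difference itself changed between days 8 and 14 was asked by an interaction term. It called 0 of the 9 genes (3 had an unadjusted p under 0.05) and 0 of all 15819 genes, or 0% (962 had an unadjusted p under 0.05). For Prl2b1, with 0 counts in both genotypes at day 8, the term could not decide. It could decide little for Tpbpa, Tpbpb and Psg29. These had 6, 0 and 9 counts in null cultures at day 8, against 0, 1 and 2 in wild type cultures.

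**Figure D2:**
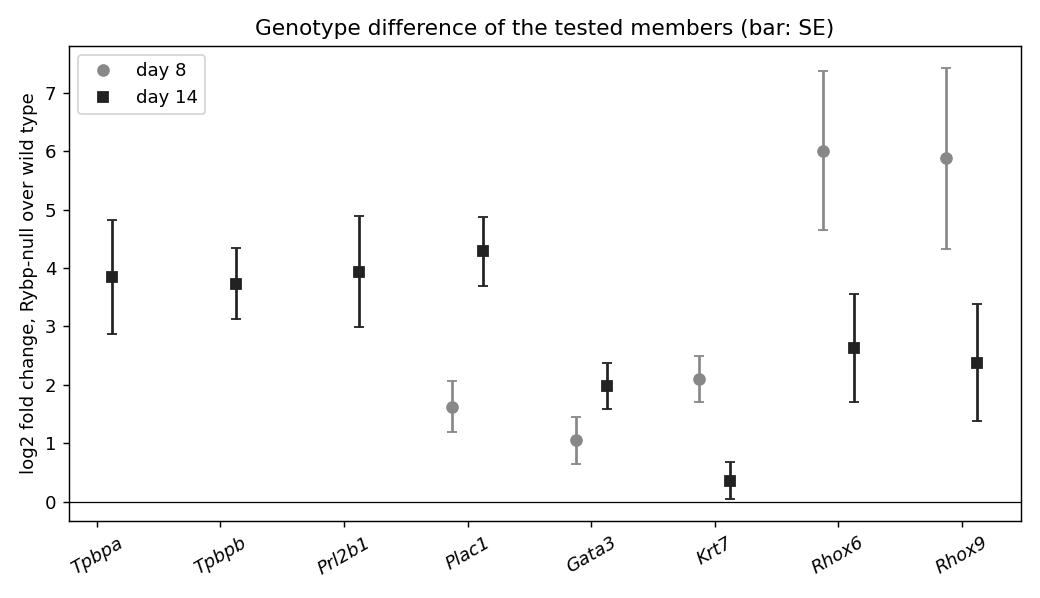
Log2 fold change, Rybp-null over wild type (vertical axis), of each gene with more than 3 counts in both groups, at day 8 (grey circles) and day 14 (black squares); bars are standard errors. Rhox6 and Rhox9 stood highest at day 8 (6.01 and 5.88), while at day 14 Plac1 (4.29) stood highest and Krt7 (0.36) lowest; Psg29 is not drawn, since it had 3 or fewer counts in each wild type group.

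Exon length was used to compare genes by level. In null day 14 cultures the mean was 168 CPM per kilobase of exon for Tpbpa and 50.3 for Rhox6. Rhox9 (28.7), Prl2b1 (27.8) and Gata3 (23.8) came next and differed among themselves by less than the spread between replicates. Tpbpb (14.9), Krt7 (10.6), Plac1 (10.1) and Psg29 (2.27) followed, of which Krt7 and Plac1 could not be told apart by their spread. Cdx2 was lowest, at 0.117 CPM per kilobase. In wild type day 14 cultures the order began with Tpbpa (11.8), Rhox6 (8.41) and Krt7 (8.28), 3 levels within the spread of the Tpbpa and Rhox6 replicates.

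Wild type day 14 replicate 1 stood apart from replicate 2 for some of the 10 genes and not for others. As a percentage of the null day 14 mean, Rhox9 reached 38.3% in wild type replicate 1 and 1.07% in replicate 2. Rhox6 reached 32.9% in replicate 1 and 0.502% in replicate 2, and Tpbpa 12.8% in replicate 1 and 1.28% in replicate 2. Prl2b1 reached 13.5% in replicate 1 and had 0 counts in replicate 2. Plac1, by contrast, was at 4.3% and 5.41%, Psg29 at 2.46% and 4.13%, Tpbpb at 9.57% and 5.36%, and Krt7 at 71.2% and 85%, in replicates 1 and 2. Gata3 lay between these, at 37.3% in replicate 1 and 13.8% in replicate 2. The low values rest on few counts: the wild type group held 3 counts of Psg29, 5 of Plac1 and 10 of Tpbpb.

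On CPM + 1, replicate 1 was at least 4-fold above replicate 2 for 4 of the 9 tested genes (Tpbpa, Prl2b1, Rhox6 and Rhox9), beside 0.443% of all tested genes. The reverse held for 0 of 9, beside 0.12% of all. In the null day 14 pair, 0 of the 9 genes differed that much with replicate 1 higher, beside 0.424% of all. The same was true of 0 of 9 in the day 8 pairs, beside 0.506% of all in null cultures and 0.158% in wild type cultures. Of 40 other trophoblast genes tested, 6 stood at least 4-fold higher in wild type replicate 1: Tfap2c, Syna, Ctsq, Prl2a1, Ctsj and Ldoc1. Markers of other cell types are given beside this. Summed cardiomyocyte markers stood at 1035 CPM in replicate 1 and 909 CPM in replicate 2, extraembryonic endoderm markers at 733 and 802 CPM, surface ectoderm markers at 60.5 and 43.4 CPM, and epithelial keratins and junction genes at 271 and 143 CPM. Their part in the split was not tested. Without wild type replicate 1 the day 14 log2 fold change was 6.27 for Tpbpa and 2.86 for Gata3, and 5 of the 9 genes were called; the wild type group then held 1 count of Rhox6 and 3 of Rhox9, so no fold is given for these. Without wild type replicate 2 it was 1.60 for Rhox6, 1.38 for Rhox9, 2.96 for Tpbpa and 1.42 for Gata3, and 1 of 9 was called. Without null replicate 1, too, 1 of 9 was called.

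**Figure D3:**
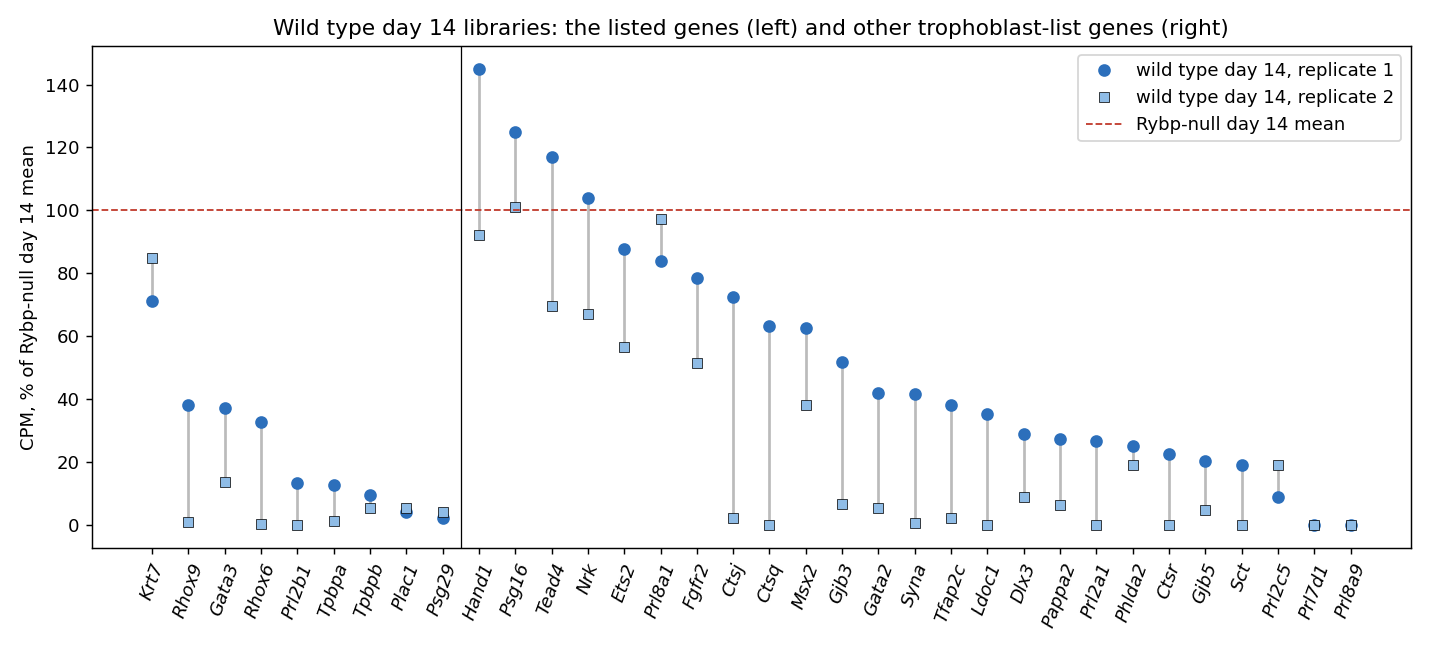
CPM in each wild type day 14 library as a percentage of the null day 14 mean (vertical axis; dashed line at 100%), for tested genes with a null mean of at least 5 CPM: the genes described here on the left and other trophoblast genes on the right. Replicate 1 (circles) stood far above replicate 2 (squares) for Rhox9, Rhox6, Syna, Tfap2c, Ctsj and Ctsq, and the replicates lay close together for Plac1, Psg29 and Tpbpb.

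The course over time within each genotype was then tested. These tests share the day 8 and day 14 libraries with the genotype comparisons above, and the single day 0 library of each genotype is taken to vary as the replicated groups do. In null cells, day 8 against day 0, 4 of the 9 genes rose, beside 19% of all tested genes. Gata3 rose by a pooled ratio of 132 (95% counting interval 44.8 to 641, adjusted p = 6.48e-05), and Plac1 at least 34.9-fold over 0 counts (adjusted p = 7.62e-05). Krt7 rose by 3.28 on the log2 scale (SE 0.53, adjusted p = 0.000462) and Rhox6 by 4.30 (SE 1.40, adjusted p = 0.0437). The call for Rhox6 was lost without any single library of the wild type day 8, null day 8 or null day 14 groups and under DESeq2, with adjusted p between 0.0612 and 0.144, and with no filter (0.251). Rhox9, at 3.68 (SE 1.5, adjusted p = 0.0983), did not pass.

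In wild type cells, day 8 against day 0, 3 of 9 rose, beside 21.2% of all tested genes: Gata3 by 2.89 (SE 0.67, adjusted p = 0.00477), Krt7 by 2.11 (SE 0.76, adjusted p = 0.0416) and Plac1 at least 5.9-fold over 0 counts (adjusted p = 0.00227). Gata3, Krt7 and Plac1 were thus called higher at day 8 than in ES cells in both genotypes. The call for Krt7 in wild type cells was lost without wild type day 8 replicate 2 or either wild type day 14 library and under DESeq2 (adjusted p between 0.0539 and 0.187). Rhox6 and Rhox9 did not pass in wild type cells, at log2 fold changes of −1.42 (SE 2.45) and −3.07 (SE 2.2).

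In null cells, day 14 against day 8, 5 of 9 rose (Tpbpa, Tpbpb, Prl2b1, Psg29 and Krt7), beside 4.29% of all tested genes, and none fell, beside 3.41%. High levels in null day 14 cultures were in view when the genes were chosen. Tpbpb and Prl2b1, besides, had at most 10 and 11 counts in any other group. Nothing is therefore read from this count or from the adjusted p-values of these rises, which are given as a description. Tpbpa rose by 8.77 on the log2 scale (SE 1.44, adjusted p = 0.0332), Tpbpb at least 47.7-fold over 0 counts (adjusted p = 0.000507) and Prl2b1 at least 61.4-fold over 0 counts (adjusted p = 0.0104). Psg29 rose by 3.37 (SE 0.74, adjusted p = 0.0162) and Krt7 by 1.58 (SE 0.33, adjusted p = 0.0122). Gata3, Rhox6, Rhox9 and Plac1 did not pass: the log2 fold change was 0.51 (SE 0.38) for Gata3, 0.32 (SE 0.82) for Rhox6, 0.94 (SE 0.93) for Rhox9 and −0.34 (SE 0.41) for Plac1. The call for Tpbpa was lost without any single null day 8 or day 14 library or with no filter (adjusted p between 0.0961 and 0.203), that for Psg29 without null day 8 replicate 2 (0.0722), null day 14 replicate 1 (0.129) or under DESeq2 (0.0532), and that for Prl2b1 without null day 8 replicate 1 (0.0543) or under DESeq2 (0.33).

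In wild type cells, day 14 against day 8, Krt7 rose by 3.33 (SE 0.39, adjusted p = 0.000821), beside 2.47% of all tested genes. Plac1 fell by 3 (SE 0.63, adjusted p = 0.0196), beside 1.57%, a call lost without wild type day 8 replicate 2 or either wild type day 14 library (adjusted p between 0.134 and 0.227). Tpbpa, at least 52.2-fold higher at day 14 over 0 counts, did not pass (adjusted p = 0.18), nor did Rhox6 (3.71, SE 1.55, adjusted p = 0.287) or Rhox9 (4.44, SE 1.68, adjusted p = 0.246). Without wild type day 14 replicate 2, 3 of these passed in their place: Tpbpa (adjusted p = 0.00109), Rhox6 (0.00566) and Rhox9 (0.00283). Tpbpa also passed without wild type day 14 replicate 1 (0.0209) and under DESeq2 (0.00127). Whether Plac1 took a different course in the genotypes was part of the interaction test, where its value was 2.66 (SE 0.77) on the log2 scale. That test called none of the 9 genes and 0 of all 15819 genes, so the absence of a call does not settle the question.

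Beyond the 10 genes, 5 lists of other trophoblast genes were followed: transcription factors and stem cell genes, other Rhox genes, placental prolactins, pregnancy-specific glycoproteins with placental cathepsins, and genes of syncytiotrophoblast and placental function. They hold 99 genes, of which 93 were in the table, 13 of those had 0 counts in every library, and 40 passed the filter. At day 8, 1 of 40 was higher in null cultures, beside 0.506% of all tested genes: Phlda2, an imprinted gene that restrains placental growth. Phlda2 had 35.5 and 63.3 CPM in null cultures at day 8, against 3.19 and 12.1 CPM in wild type cultures. Its log2 fold change was 2.66 (SE 0.49, adjusted p = 0.0202), a call lost without wild type day 8 replicate 1 (adjusted p = 0.201) or null day 8 replicate 2 (0.0571). At day 14 edgeR called 0 of 40, with 19 at an unadjusted p under 0.05, and DESeq2 called 1. Over all 15819 tested genes, 2122 at day 8 and 2038 at day 14 had an unadjusted p under 0.05 between genotypes. In null cells 3410 did so between day 14 and day 8. These stand beside all such counts below, while DESeq2 calls are given without a share over all genes. Both null libraries lay above both wild type libraries for 10 of 40 at day 8, beside 21.1%, and 24 of 40 at day 14, beside 20.9%. The median log2 fold change of the 40 was 0.20 at day 8 and 2.14 at day 14; many of them passed the filter through the null day 14 libraries alone, so these counts are a description.

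Among the transcription factors edgeR called 0 of 11 between genotypes at either day, and DESeq2 called 1 at day 8 and 0 at day 14. At an unadjusted p under 0.05 there were 3 at day 8, beside 2122 of all 15819 tested genes, and 2 at day 14, beside 2038. Tfap2c, a factor of trophoblast and of germ cells, had 84.6 and 86.9 CPM in null cultures at day 8, against 0 and 2.25 CPM in wild type cultures. At day 14 it had 150 and 104 CPM in null cultures, against 48.4 and 3.06 CPM in wild type cultures. Neither difference passed: on the log2 scale it was 6.13 (SE 1.51, adjusted p = 0.164) at the earlier day and 2.33 (SE 1.02, adjusted p = 0.425) at the later. In ES cells it was already present, with 115 CPM in null ES cells against 214 CPM in wild type ES cells. Tfap2c fell between day 0 and day 8 in wild type cells (log2 fold change −7.45, SE 1.58, adjusted p = 0.0132) and did not pass in null cells (−0.42, SE 1.12, adjusted p = 0.805); the difference between these courses was not tested. Fgfr2, the receptor for the growth factor that maintains trophoblast stem cells, and Ets2 did not pass, at −0.33 (SE 0.46) and 0.39 (SE 0.29) at day 8 and 0.62 (SE 0.46) and 0.47 (SE 0.28) at day 14. The remaining tested factors did not pass either. Log2 fold changes at days 8 and 14 were −0.99 and −0.20 for Eomes, −0.25 and −0.25 for Hand1, and 0.29 and 0.10 for Tead4. They were 0.41 and 0.25 for Tfap2a, 0.81 and 0.97 for Msx2, 1.93 and 2.11 for Gata2, and 2.15 and 2.40 for Dlx3. Elf5 had a ratio of 2.93 (0.753 to 16.5) at day 8 and a log2 fold change of 0.45 at day 14. Ascl2, Gcm1, Esx1 and Ovol2 had too few counts to be tested.

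Few of the other Rhox genes were detected. Of 21 other Rhox genes fixed, 17 were in the table, 6 had 0 counts and 4 were tested, and 0 of 4 passed between genotypes at days 8 and 14 (0 and 1 at an unadjusted p under 0.05; DESeq2 called 0 at both). Rhox8 stood at 6.04 and 1.73 CPM in null cultures against 2.24 and 2.82 CPM in wild type cultures at day 8. Rhox13, a germ cell gene, was at 18.1 CPM in null ES cells against 0.99 CPM in wild type ES cells, and Rhox10 at 7.45 CPM in null ES cells against 0 CPM in wild type ES cells. Rhox6 and Rhox9 were thus high in the differentiated null cultures, and Rhox10 and Rhox13 in the null ES cell library; at day 0, with 1 library a genotype, the difference was not tested.

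Prolactin genes other than Prl2b1 were also found at day 14. Between genotypes at that day edgeR called 0 of 9 (8 at an unadjusted p under 0.05, beside 2038 of all 15819 tested genes) and DESeq2 0. Between day 14 and day 8 in null cells 5 of 9 tested prolactin genes rose, beside 4.29% of all tested genes, and 15 of the 24 on the list did not reach the filter. Nothing is read from this count either, since several entered the test through the null day 14 libraries: Prl7d1 had 48 counts and Prl8a9 38 counts there, against 0 in null day 8 libraries, and Prl6a1 had 27 counts against 0. Prl7d1 had 7.32 and 5.44 CPM in null cultures at day 14 and 0 counts in wild type cultures at any day, at least 15.2-fold higher in null cultures at day 14 (adjusted p = 0.0733, not passed). Prl2a1 had 39.1 and 24.5 CPM in null cultures at day 14, against 8.52 and 0 CPM in wild type cultures; at 2.95 (SE 1.15, adjusted p = 0.365) the log2 difference did not pass. Prl2c5 had 8.16 and 5.19 CPM in null cultures at day 14, against 0.608 and 1.28 CPM in wild type cultures. Prl8a1, the highest of the list, had 35.5 and 29.7 CPM in null cultures at day 14, against 27.4 and 31.7 CPM in wild type cultures, and rose at day 8 over day 0 in both genotypes (adjusted p = 1.72e-06 in null and 4.1e-06 in wild type cells).

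Between day 14 and day 8, 4 of 6 tested genes of the glycoprotein and cathepsin list rose in null cells, beside 4.29% of all tested genes: Psg27, Ctsj, Ctsq and Ctsr. Psg27, Ctsj and Ctsr had 0 counts in null day 8 libraries, and Psg27 had 28 counts in null day 14 libraries against 0 in wild type day 14 libraries, so this count, too, is a description. Ctsj, a placental cathepsin, had 14.4 and 7.41 CPM in null cultures at day 14, against 7.91 and 0.255 CPM in wild type cultures. Ctsq had 9.85 and 7.41 CPM in null cultures at that day, against 5.47 and 0 CPM in wild type cultures. Wild type replicate 1 thus held Ctsj and Ctsq at 72.6% and 63.4% of the null mean. Psg16, another pregnancy-specific glycoprotein, had 23.1 and 21.3 CPM in null cultures at day 14, against 27.7 and 22.5 CPM in wild type cultures. DESeq2 called 0 of the 9 prolactins and 0 of the 6 glycoprotein and cathepsin genes between day 14 and day 8 in null cells, and gave no adjusted p to 7 and 3 of them.

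Of the genes of the syncytium and of placental function, edgeR called 0 of 10 between genotypes at day 14 and DESeq2 1. At an unadjusted p under 0.05 there were 6 of the 10, beside 2038 of all 15819 tested genes. Syna, the retroviral envelope protein that fuses trophoblast cells, had 63.1 and 23.2 CPM in null cultures at day 14, against 17.9 and 0.255 CPM in wild type cultures. Pappa2, a placental protease of growth factor binding proteins, had 90.9 and 56.4 CPM in null cultures at that day, against 20.1 and 4.85 CPM in wild type cultures. Pappa2 did not pass between genotypes (log2 fold change 2.58, SE 0.53, adjusted p = 0.0554), and rose between day 14 and day 8 both in null cells (5.79, SE 0.69, adjusted p = 0.000575) and in wild type cells (3.32, SE 0.76, adjusted p = 0.0331). Nrk, a kinase of the spongiotrophoblast and the highest of the list, had 1052 and 565 CPM in null cultures at day 14, against 838 and 541 CPM in wild type cultures. At day 8 it had 458 and 388 CPM in null cultures, against 754 and 627 CPM in wild type cultures, groups that did not overlap. The log2 difference for Nrk was 0.23 (SE 0.28) at the later day, with an adjusted p of 0.818, and −0.71 (SE 0.28) at the earlier, with an adjusted p of 0.296, and neither passed.

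**Figure D4:**
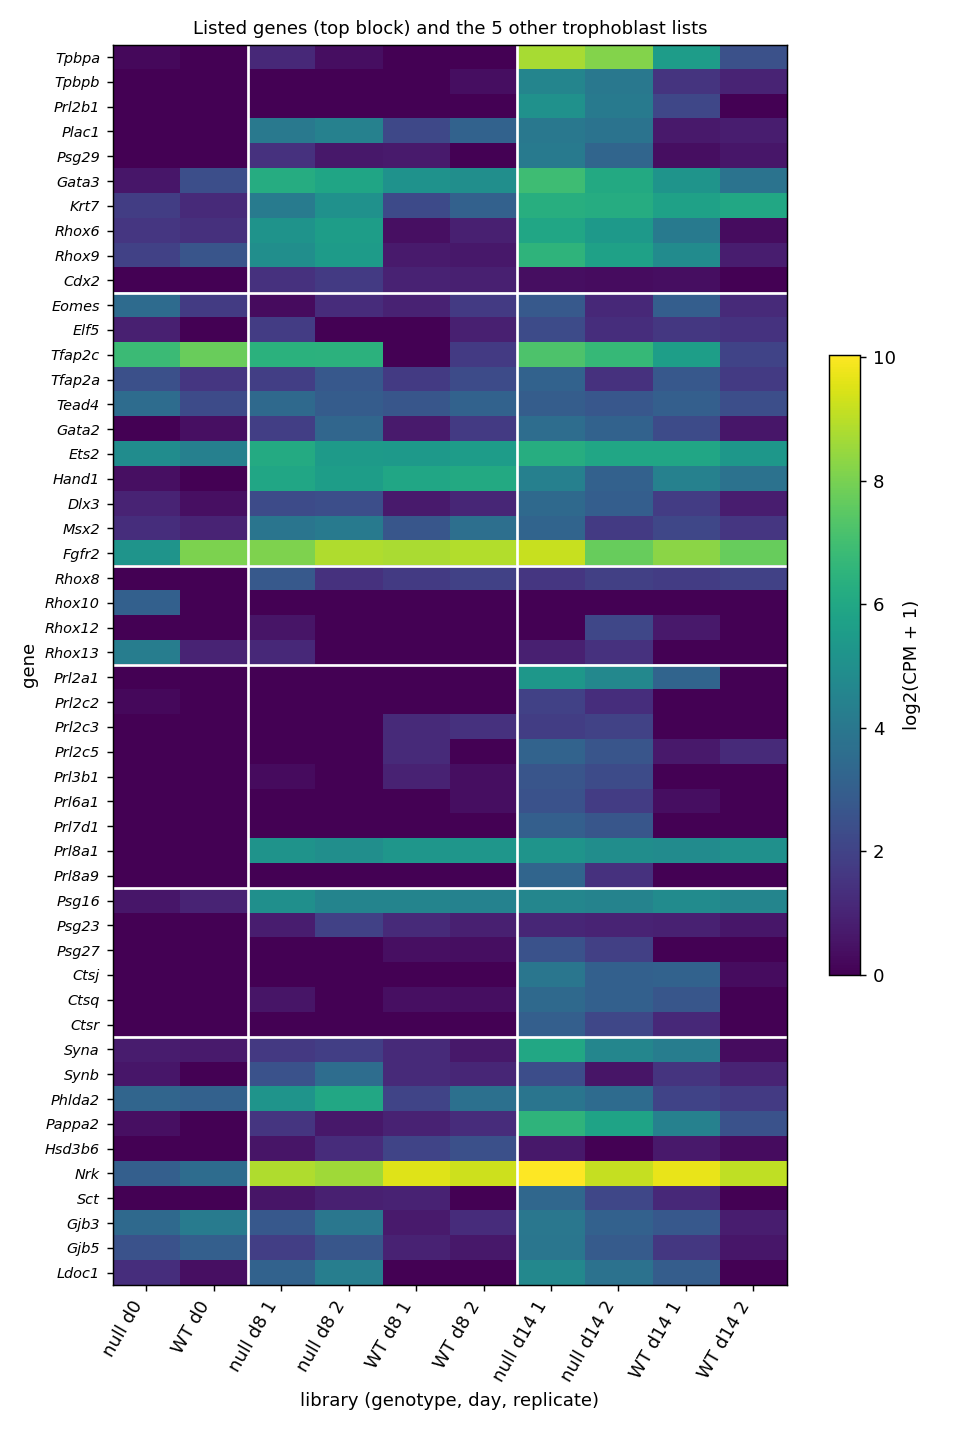
Log2(CPM + 1) of the 10 genes (top block) and of the tested genes of the 5 other trophoblast lists (lower blocks) in each of the 10 libraries, with null before wild type at each day. Most prolactins and cathepsins were near 0 until day 14, while Prl8a1 and Psg16 were present in both genotypes from day 8.

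By position, 3 of the 10 genes lie on chromosome 13 and 3 on the X chromosome. Within 500 kb of Tpbpa (GENCODE vM21) lie 14 genes outside the set of 10, of which 5 were tested. Between genotypes 0 of 5 passed at day 14 (1 at an unadjusted p under 0.05, 0 by DESeq2), while between day 14 and day 8 in null cells 3 of 5 rose, beside 4.29% of all tested genes: the cathepsins Ctsj, Ctsq and Ctsr, already counted above. Of the other tested neighbours of Tpbpa, Dapk1 had 299 and 296 counts in null libraries against 318 and 344 in wild type libraries at day 14, and Ctla2a 11 and 20 counts in null libraries against 4 and 13 in wild type libraries. Within 500 kb of Prl2b1 6 of 26 genes were tested, all of the prolactin cluster, and 4 of 6 rose between day 14 and day 8 in null cells, beside 4.29%; these are prolactins of the list above. Around Rhox6 0 of 7 tested genes, and around Psg29 0 of 13, passed edgeR's test in that comparison (0 and 1 at an unadjusted p under 0.05) or between genotypes at day 14 (1 and 3), and DESeq2 called 0 in each.

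The genes whose profile was most like each of the tested genes, by Pearson r of log2(CPM + 1) over the 10 libraries, follow as a description, since libraries share their day and genotype. For Tpbpa they were Pappa2 (0.987), Prl2a1 (0.976) and Tnfrsf9 (0.974). For Tpbpb they were 1600012P17Rik (0.995), Ctsr (0.973) and 1600025M17Rik (0.973), and for Prl2b1 Ctsr, Tnfrsf9 and Serpinb9f (0.997 each). Psg29 was nearest to Tspan11 (0.959), Prl7d1 (0.951) and Usp18 (0.948). Rhox6 and Rhox9 had the same nearest gene, Ldoc1 (0.986 and 0.973), followed by Flvcr1 (0.941 and 0.939), then Dlx3 (0.934) for Rhox6 and Plpp2 (0.917) for Rhox9. Ldoc1, an X-linked gene that regulates placental hormone production in the mouse, had 7.98 and 18.7 CPM in null cultures at day 8, against 0 counts in wild type cultures. Gata3 was nearest to Cited1 (0.981), Iqgap1 (0.962) and Ppfibp2 (0.962), Krt7 to Cacna1g (0.975) and Plekha6 (0.968), and Plac1 to Ercc5 (0.977), Dlg1 (0.965) and Ano1 (0.96). Between the genes themselves r was highest for Rhox6 with Rhox9 (0.982) and Prl2b1 with Tpbpb (0.977), and lowest for Plac1 with Tpbpa (0.295).

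Markers of other cell types that can hold some of these genes moved with genotype in part. Summed over 8 germ cell markers, the level was 61.9 and 117 CPM in null cultures against 9.9 and 10.1 CPM in wild type cultures at day 8, and 64.2 and 40.5 CPM in null cultures against 13.4 and 19.4 CPM in wild type cultures at day 14. In ES cells that sum was already 521 CPM in the null library against 172 CPM in wild type, a difference not tested. Of 7 tested germ cell markers 4 were called higher in null cultures at day 8 (Ddx4, Mael, Tex11 and Sycp3), beside 0.506% of all tested genes. At day 14 3 were called (Mael, Tex11 and Sycp3), beside 0.259%. Dazl and Prdm1 had lower means in null cultures at both days and did not pass, at −1.51 (SE 0.75) and −0.61 (SE 0.42) at day 14. Dppa3 passed at neither day. Summed over 10 extraembryonic endoderm markers, it was 628 and 569 CPM in null cultures against 681 and 620 CPM in wild type cultures at day 8, and 769 and 807 CPM in null cultures against 733 and 802 CPM in wild type cultures at day 14. Most of that sum came from Dab2 and Lama1. Of the 10 markers, all tested, 2 were called lower in null cultures at day 8, beside 0.759% of all tested genes, and 1 at day 14, beside 0.354%. Afp, a fetal plasma protein made by yolk sac endoderm, was lower at both days (log2 fold change −2.82, SE 0.49, adjusted p = 0.0231 at day 14). At day 8 it had 1 and 0 counts in null libraries, against 37 and 26 in wild type libraries (adjusted p = 0.00877). Apoa1, an apolipoprotein, had 0 and 3 counts in null libraries at day 8, against 36 and 52 in wild type libraries (adjusted p = 0.0204). Over 9 posterior embryo and intestine markers it was 26.8 and 22.2 CPM in null cultures against 17.6 and 20 CPM in wild type cultures at day 8, and 22.5 and 18.3 CPM in null cultures against 11.3 and 14.5 CPM in wild type cultures at day 14; Cdx4 had 0 counts in every library and Cdx1 had 1 count in all. Over 6 surface ectoderm markers it was 85.4 and 43.2 CPM in null cultures against 54.0 and 50.2 CPM in wild type cultures at day 8, and 91.8 and 61.8 CPM in null cultures against 60.5 and 43.4 CPM in wild type cultures at day 14. Over 7 epithelial keratin and junction genes it was 258 and 639 CPM in null cultures against 242 and 349 CPM in wild type cultures at day 8, and 641 and 254 CPM in null cultures against 271 and 143 CPM in wild type cultures at day 14. Krt18 and Krt8 did not pass at day 14, at log2 fold changes of 1.36 (SE 0.36, adjusted p = 0.118) and 0.99 (SE 0.40, adjusted p = 0.299). The pluripotency markers, summed over 7 genes, stood at 59.7 and 119 CPM in null cultures against 49.2 and 59.2 CPM in wild type cultures at day 8, after 10888 CPM in null ES cells against 6067 CPM in wild type ES cells. Most of that day 0 sum was Nanog (null 8244 CPM, wild type 4088 CPM). Tdgf1, Esrrb, Zfp42 and Klf4 were also higher in the null ES cell library. Pou5f1 (null 154 CPM, wild type 172 CPM) and Sox2 (null 159 CPM, wild type 182 CPM) were lower there. With 1 library a genotype, these day 0 differences were not tested. The part of these other cell types in the levels of the 10 genes was not tested.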

How the data were processed

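Per the labels' protocols, TRIzol RNA was used with NuGEN's Ovation and Encore library kits. The authors deposited 1 table of whole-number read counts per Ensembl gene, not normalized; the submitters' processing notes name TopHat, HTSeq, DESeq and build mm9, with versions, annotation release and strand setting not given in the sources used here. Symbols were matched for 30946 of 36191 IDs. The 10 genes and the lists of other genes were chosen with earlier results of these data known. Single pluripotency and germ cell markers, and the remaining tested transcription factors, were named after their values were seen. Named were the 10 genes, Rybp, the genes of the other trophoblast lists that were called between genotypes or were among the 3 highest of their list, and the 3 genes nearest to each tested gene, of which 1 is not reported here; Prl7d1, Syna, Ldoc1, Psg27, Ctsr, the untested factors, Prl8a9, Prl6a1, the markers Afp, Apoa1, Dab2, Lama1, Krt8 and Krt18, markers near 0 (Nkx2-5, Cdx1, Cdx4) and the neighbours Dapk1 and Ctla2a were added after their values were seen.

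Counts were tested with edgeR 4.0.16 in R 4.3.3 (filterByExpr, minimum count 10, TMM scaling, quasi-likelihood fit with robust dispersion, 6 genotype-by-day groups over all 10 libraries, 4 residual degrees of freedom). Standard errors restate the test (size of the log2 fold change divided by the root of F). Tests were two-sided, adjusted over 15819 genes within each comparison, and tested on simulated data first. With 0 counts in a group, a fold is a bound taken at a group floor of 3 counts; with 1 to 3 counts, and for day 0, a ratio of pooled CPM with an exact 95% interval is used, and with 3 or fewer counts in both groups none is given. Intervals and floors cover counting error only. Exon lengths, neighbours and 36-base words came from GENCODE vM21 and promoters from RefSeq, both on GRCm38; no coordinates were converted. Windows were aligned with Biopython 1.88. Alternatives were RLE size factors, DESeq2 1.42.0, no filter, a replicate block, leaving out each library, and leaving out the genes of chromosomes 1, 6, 8, 14 and Y, the last chosen after seeing the data.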

Additional observations from a re-analysis of the deposited data

How the results depend on the processing

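Under RLE size factors and with the genes of chromosomes 1, 6, 8, 14 and Y left out, no count of calls given here moved by over 1.5 times; the genes of chromosomes 1, 6, 8 and 14 had a median log2 fold change, null over wild type, of 0.30 at day 8 and 0.28 at day 14, and 0 of the 10 genes lie there. Among values of single genes, 528 kept their direction and their side of the threshold, 41 gained a call, 38 lost one and 3 turned round. At day 8 the count of the 9 tested genes called between genotypes, 1 in the fit reported, was 3 under DESeq2, 3 with no filter and 5 with a replicate block, and 0 to 3 when a library was left out. It was 0 without wild type day 8 replicate 1 or 2 or null day 8 replicate 2. At day 14 the count, 3 in the fit reported, was 5 with no filter and 5 with the replicate block, and 1 to 5 when a library was left out. Of the 40 other trophoblast genes, 1 was called at day 8, against 3 under DESeq2, 5 with no filter, 4 with the replicate block and 0 to 3 with a library left out. At day 14 0 were called, against 1 under DESeq2, 13 with no filter, 6 with the replicate block and 0 to 4 with a library left out (4 without wild type day 14 replicate 1). Between day 14 and day 8 in null cells 5 of the 9 genes were called, against 3 under DESeq2 and 3 to 5 with a library left out. In wild type cells 2 were called, against 1 to 4 with a library left out. Between day 8 and day 0 the range was 3 to 5 in null and 2 to 3 in wild type cells. The 3 values that turned round were those of Gata3 between day 14 and day 8 in wild type cells, 0.14 without wild type day 14 replicate 2 (−1.29 without replicate 1), and of Rhox6 in the same comparison, −1.13 in wild type cells without wild type day 14 replicate 1 (4.73 without replicate 2) and −0.0029 in null cells without null day 14 replicate 1 (0.59 without replicate 2). Of these, 4.73 passed (adjusted p = 0.00566) and the others did not. The cause was not tested, except that fewer libraries leave fewer residual degrees of freedom. The share of all genes called under each alternative is not given. Counts of calls under the alternatives, here and above, can therefore not be set beside all genes. Same-numbered replicates correlated at 0.0654 (day 8) and 0.160 (day 14) in their deviations from the group means, over 2 pairs a day, so the samples may share only a number, and the block is given as counts. Depth limits Cdx2 in every group (at most 15 counts), and Psg29, Tpbpb and Prl2b1 in every group other than null day 14 (at most 11).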
